A study of Homo sapiens with 10 samples.

Results

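The 3668 regions described here are those assigned to LINC genes, the long intergenic non-coding RNA genes whose symbols start with LINC and a number. They were chosen by symbol alone from the 67387 regions that the authors had annotated with a gene, and the whole deposited count table holds 169637 regions. The 3668 regions belong to 746 LINC genes, with a median of 3 regions per gene and at most 41. A region takes the symbol of the gene with the nearest transcription start site (TSS), so a symbol gives position and does not show which gene a region acts on. All 3668 passed the filter on low counts. By gene identifier, 745 of the 746 genes were found in RefSeq, 744 of them as lncRNA and 1 as a transcribed pseudogene, and 38 now carry another symbol there, such as ASMER1 for LINC02246.

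Acetylation of histone H3 at lysine 27 (H3K27ac) was measured by ChIP-seq. The cells were H1975, an established line from a human lung adenocarcinoma that carries mutant EGFR. DMSO cells spent 21 days in drug-free medium, after which DMSO was given over the last 3 days. Osimertinib DTP cells, drug-tolerant persisters that survive an inhibitor of mutant EGFR, were kept in 500 nM osimertinib for 24 days. Osimertinib DTP + AZD5153 cells, called the AZD5153 group below, spent 21 days in 500 nM osimertinib and then 3 days in 150 nM AZD5153, an inhibitor of the BET bromodomain proteins that read acetylated histones, and the labels do not say whether osimertinib was continued in those days. Each group had 3 libraries, described by the labels as biological replicates of this single line, and 1 input library was pooled over the study, so DNA copy number was not measured per group.

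Total counts were 6263443 to 10463351 per H3K27ac library. Replicate 3 of the AZD5153 group stood apart: it had the lowest total, and its Spearman correlation with replicates 1 and 2 of its group was 0.445 and 0.367, against 0.805 or more between replicates elsewhere. Promoter regions were present for 5 of 5 epithelial markers and 3 of 3 lung epithelial markers, but also for 1 of 4 leukocyte, 1 of 2 endothelial and 2 of 2 fibroblast markers. The highest PDGFRB promoter region averaged 2.89 CPM (counts relative to the TMM-scaled library size, on the usual CPM scale) in DMSO, 19.3 in osimertinib DTP and then 29.9 in the AZD5153 group. COL1A1, the other fibroblast marker, averaged 7.49, 24.7 and 18.8 CPM at its promoter. The part of these markers in the results below was not tested.

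Long non-coding RNAs are transcribed and spliced much like messenger RNAs but encode no known protein. Some act on chromatin or on the expression of neighbouring genes, others act elsewhere in the cell, and for many no function is known. H3K27ac is laid down by the acetyltransferases p300 and CBP at active promoters and active enhancers. Many LINC genes lie in wide intervals between coding genes, and acetylated regions assigned to them can be promoters of the RNA or enhancers that lie nearer to its start than to any other.

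Of 531 LINC genes matched to a RefSeq promoter (250 bases before to 50 after a start, GRCh38.p14), 141 had a promoter window that overlapped a region of the same gene. In 131 of these 141 the overlapping region was not called in osimertinib DTP against DMSO, in 3 it was higher and in 7 lower. Counted per region, 2.78% of all annotated promoter regions within 1 kb of a TSS were higher and 1.85% lower. These shares were not tested against each other. The 3 promoters shown are those of a gene whose promoter region was higher in osimertinib DTP (LINC02104), of one where it was lower (LINC01843) and of one of the most acetylated LINC promoters (LINC02709). Capitals mark the bases that lie inside the measured region. All are written 5′ to 3′ on the strand of the gene.
LINC02104, chr5:39520181-39520480, plus strand: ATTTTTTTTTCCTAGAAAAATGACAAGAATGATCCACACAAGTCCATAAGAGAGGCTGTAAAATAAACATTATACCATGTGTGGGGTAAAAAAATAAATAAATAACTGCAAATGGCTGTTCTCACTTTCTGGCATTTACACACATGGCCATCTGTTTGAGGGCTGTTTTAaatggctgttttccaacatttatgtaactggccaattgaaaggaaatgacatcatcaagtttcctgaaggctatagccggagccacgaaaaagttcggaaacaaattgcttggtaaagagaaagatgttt
LINC01843, chr5:134506302-134506601, plus strand: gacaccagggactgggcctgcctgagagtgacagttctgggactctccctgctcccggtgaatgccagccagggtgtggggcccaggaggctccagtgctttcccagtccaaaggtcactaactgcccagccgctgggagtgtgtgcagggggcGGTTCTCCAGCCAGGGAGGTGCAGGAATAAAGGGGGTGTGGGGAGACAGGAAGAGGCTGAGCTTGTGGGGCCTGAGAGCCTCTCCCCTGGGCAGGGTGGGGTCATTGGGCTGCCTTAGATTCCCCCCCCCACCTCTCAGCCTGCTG
LINC02709, chr11:9759484-9759783, minus strand: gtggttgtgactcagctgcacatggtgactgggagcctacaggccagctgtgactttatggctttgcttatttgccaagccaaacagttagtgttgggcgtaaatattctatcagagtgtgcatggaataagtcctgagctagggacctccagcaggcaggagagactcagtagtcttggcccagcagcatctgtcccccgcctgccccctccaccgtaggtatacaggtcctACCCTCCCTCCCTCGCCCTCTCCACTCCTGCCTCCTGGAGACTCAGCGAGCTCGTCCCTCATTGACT

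The LINC02104 window holds 3 CG dinucleotides in 300 bases with a GC content of 36%, and the LINC01843 window also holds 3, with a GC content of 64.7%. The LINC02709 window holds 6, with a GC content of 56%. The median was 4 CG over all 575 windows of the matched LINC genes, 12.5 over the 158 windows that overlapped a region of their gene, and 14 over all 35116 RefSeq promoters. Counted from 1 at the 5′ end, the LINC02709 window holds an AP-1 motif at bases 8 to 14, outside the measured region. A CCAAT box lies at bases 202 to 206 of LINC02104, outside the measured region, and another at bases 258 to 262 of LINC01843, inside it.

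Motifs were searched on both strands, and none of the strings holds another. The AP-1 motif (TGANTCA, where N is any base) occurred in 15.5% of the 575 LINC windows and in 7.71% of all promoters. For the cyclic AMP response element (TGACGTCA) these shares were 1.22% and 1.85%, for TEAD (GGAATG) 17.4% and 14%, and for FOXA (TGTTTAC) 4.87% and 3.42%. The CCAAT box (CCAAT) occurred in 35.7% and 34.6%, and the TATA box (TATAAA) in 13.4% and 11.5%. Among the 158 windows that overlapped a region the AP-1 share was 13.9%, or 22 windows. A match describes the letters only, and no binding was measured.

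LINC regions were mostly distal. Of the 3668, 2816 (76.8%) lay more than 3 kb from a TSS, against 52.9% of the other annotated regions, and 548 (14.9%) lay within 1 kb of one, against 37.3%. The median distance to a TSS was 15641 bp for LINC regions and 3849 bp for the others. By class, 1488 LINC regions were distal intergenic and 1104 intronic, and of the intronic ones 612 lay in an intron of the LINC gene itself, 74 in that of a protein-coding gene, 112 in that of another lncRNA gene, and 306 in a transcript with no gene identifier.

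The typical LINC promoter region had more H3K27ac than the typical distal one. The median of the mean CPM over the 9 libraries was 10.1 at LINC promoter regions within 1 kb and 6.75 over 3 kb from a TSS. For the other annotated regions the same medians were 11.9 and 6.52. Median counts in the input library were 13 and 12 in the LINC classes. The authors' peak lists, which were called per library, covered 77% to 82% of LINC regions in the DMSO and osimertinib DTP libraries, and 80.5%, 80% and 47.8% in replicates 1, 2 and 3 of the AZD5153 group.

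The promoter share of all annotated counts was near 1% in every library. LINC promoter regions within 1 kb held 1.03%, 1.09% and 1.02% of the counts in DMSO, 0.998%, 1.09% and 1.00% in osimertinib DTP, then 1.09%, 1.09% and 1.07% in the AZD5153 group. The groups overlapped in each of the 3 comparisons. The difference between osimertinib DTP and DMSO was -0.0133 percentage points (two-sided exact permutation p = 0.6, adjusted p = 0.9 over 6 share tests).

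LINC regions over 3 kb from a TSS held 3.55%, 3.96% and 3.78% of the counts in DMSO, 3.40%, 2.56% and 3.81% in osimertinib DTP, then 3.95%, 4.10% and 1.85% in the AZD5153 group. The low value of 1.85% was that of the library that stood apart. No distal difference passed the test either: the means differed by -0.506 points between osimertinib DTP and DMSO (exact permutation p = 0.3, adjusted p = 0.8), or by -0.158 points without osimertinib DTP replicate 2, and 3 libraries against 3 cannot give a p below 0.1. For the AZD5153 group the differences were 0.0439 points from osimertinib DTP (exact permutation p = 1, adjusted p = 1) and -0.462 points from DMSO (exact permutation p = 0.9, adjusted p = 1). The promoter differences were 0.0537 and 0.0405 points (exact permutation p = 0.4 and 0.2, both adjusted p = 0.8).

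**Figure D1:**
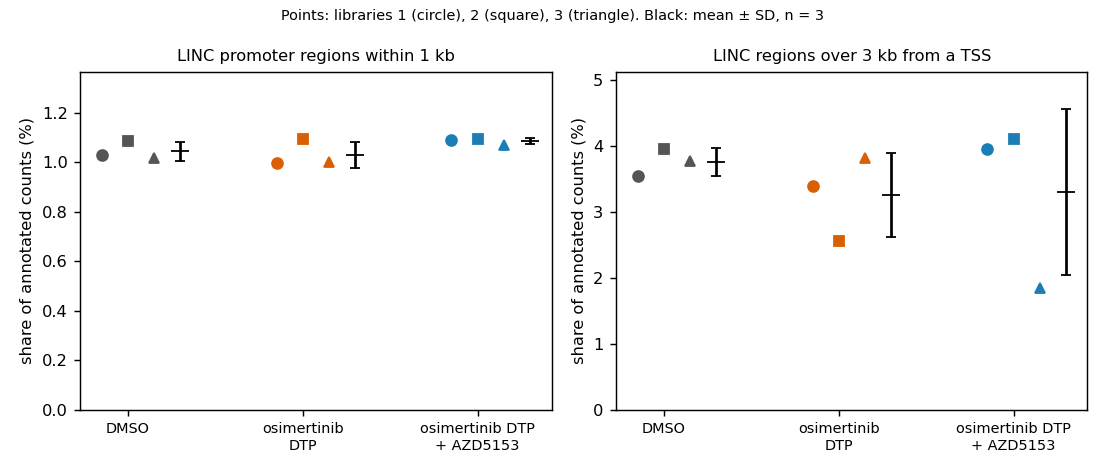
Share of the counts of all annotated regions, in percent, that fell in LINC promoter regions within 1 kb of a TSS (left) and in LINC regions over 3 kb from one (right), for each library and as mean ± SD of 3 libraries. The promoter shares sit near 1% in every library, and replicate 3 of osimertinib DTP + AZD5153 has the lowest distal share, 1.85%.

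Single LINC regions changed in both directions in osimertinib DTP. Of the 3668, 360 were higher and 488 lower than in DMSO (edgeR quasi-likelihood test, Benjamini-Hochberg adjusted p under 0.05 over all tested regions), that is 9.81% and 13.3%. The background was 5.58% higher and 5.13% lower among all 157919 tested regions, and 6.98% higher and 7.22% lower among the annotated regions. The 360 higher regions lay in 150 genes and 243 merged loci (regions within 1000 bp joined), and the 488 lower ones in 198 genes and 328 loci. The median log2 fold change was -0.08 over LINC regions and 0.15 over all tested regions.

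These counts changed when a single library was left out. That also makes its group smaller, and the part of group size in the change was not tested. They were 48 higher and 41 lower without DMSO replicate 2, 209 and 305 without DMSO replicate 1, 88 and 137 without DMSO replicate 3, 188 and 128 without osimertinib DTP replicate 2, and 174 and 112 without osimertinib DTP replicate 3. Without osimertinib DTP replicate 1 there were 264 and 184, and without replicate 3 of the AZD5153 group, which enters only through the shared fit, 700 and 915.

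The LINC regions that were higher in osimertinib DTP had little H3K27ac in DMSO. Their median mean CPM was 0.99 in DMSO, 8.14 in osimertinib DTP, then 9.05 in the AZD5153 group, and their median log2 fold change was 2.97. The lower regions went the other way, with medians of 9.84, 1.64 and 1.48 CPM and a median log2 fold change of -2.55. The smallest change called was 1.66 on the log2 scale among the higher and 1.59 among the lower regions. The peak lists, made from the same reads, gave a peak in all 3 osimertinib DTP libraries and in no DMSO library for 278 of the 360 higher regions, and the reverse for 318 of the 488 lower ones. Among the 2820 LINC regions not called, the first pattern held in 147 and the reverse in 165. The other annotated regions were not counted in this way. Since calls and peaks share their reads, the peaks are no separate support.

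Most called LINC regions were distal: over 3 kb from a TSS lay 316 of the 360 higher (87.8%) and 412 of the 488 lower regions (84.4%). Among promoter regions within 1 kb, 22 of 548 were higher (4.01%) and 33 lower (6.02%), against 2.75% and 1.76% of the other annotated promoter regions. Introns had 12.2% higher and 13.8% lower LINC regions against 9.98% and 9.61% of the others, and distal intergenic sequence 10.6% and 15.5% against 9.29% and 12.5%. No test of these shares against each other was made, since neighbouring regions are not independent.

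**Figure D2:**
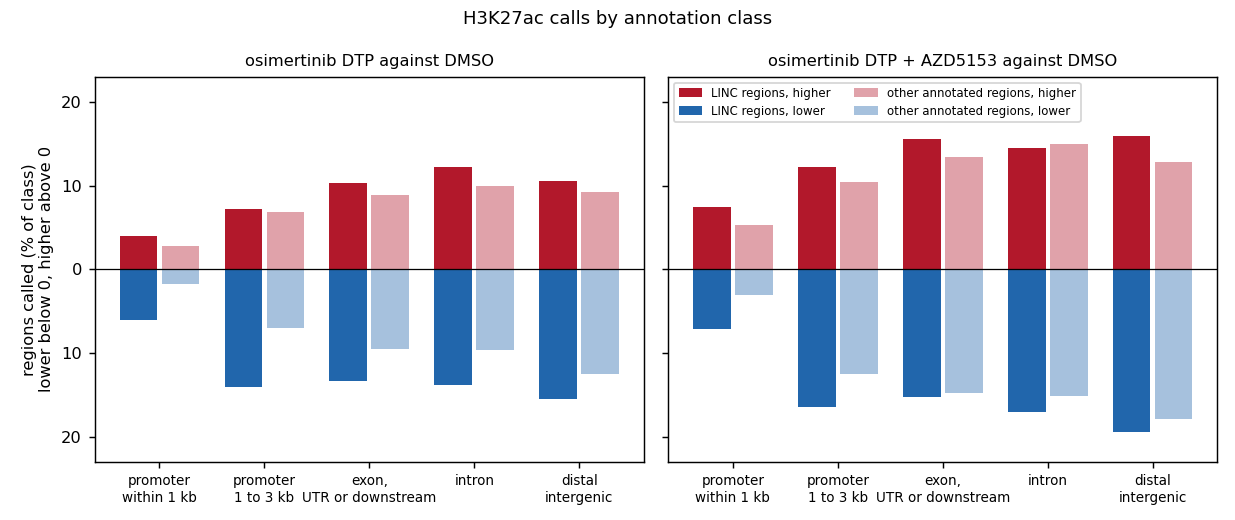
Percent of regions of each annotation class called higher (above 0) or lower (below 0) than DMSO, for LINC regions (dark) and the other annotated regions (pale), in osimertinib DTP (left) and osimertinib DTP + AZD5153 (right). In osimertinib DTP the class within 1 kb has the smallest shares, 4.01% and 6.02% for LINC regions, and distal intergenic LINC regions have the largest lower share, 15.5%.

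Both a promoter region and a region over 3 kb away were present in 186 LINC genes. In 90 of these at least 1 distal region was called in osimertinib DTP against DMSO, and in 68 of the 90 (75.6%) no promoter region of the gene was, against 86.2% of the 1986 other annotated genes with both kinds and a called distal region. Both were called in 22 of the 186 genes and the promoter alone in 11, against 275 and 184 of the 4877 other annotated genes with both kinds. A distal region was called in 48.4% of these LINC genes and in 40.7% of those other genes. Over all 299 LINC genes with a promoter region, one was higher in 19 genes and lower in 24. No such count was made for the other genes, and these shares were not tested.

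Among called regions whose osimertinib DTP and DMSO libraries did not overlap in CPM, the largest promoter rises were at LINC02303, LINC02762, LINC02104 and LINC00824. The LINC02303 promoter region (chr14:45713164-45713665) had 5, 4 and 2 counts in DMSO, 50, 35 and 51 in osimertinib DTP, then 106, 117 and 5 in the AZD5153 group, in order of replicate number. Its log2 fold change in osimertinib DTP against DMSO was 3.74 ± 0.82 (SE, edgeR adjusted p = 0.0101). Replicate 3 of the AZD5153 group had 5 counts, as many as the highest DMSO library, but from fewer total counts. After scaling it had 0.966 CPM, against 0.4535 CPM in that DMSO library.

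LINC02762 had 2 regions in this group. The stronger (chr11:112293454-112293955) had 34, 15 and 5 counts in DMSO, 153, 146 and 204 in osimertinib DTP, then 298, 234 and 24 in the AZD5153 group, a log2 fold change of 3.42 ± 0.75 (edgeR adjusted p = 0.0105). The other (chr11:112291750-112292251) had 8, 5 and 3, then 62, 8 and 88, then 101, 56 and 19 counts, with 3.33 ± 0.76 (edgeR adjusted p = 0.0124). Replicate 2 of osimertinib DTP was close to DMSO there, with 8 counts against at most 8, and the groups were apart only after scaling to CPM.

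The LINC02104 region (chr5:39519849-39520350), whose promoter sequence is given above, had 11, 5 and 3 counts in DMSO, 95, 35 and 58 in osimertinib DTP, then 212, 66 and 9 in the AZD5153 group. The change was 3.41 ± 0.81 on the log2 scale (edgeR adjusted p = 0.0143). At LINC00824 (chr8:128427761-128428262) counts were 9, 7 and 6, then 27, 54 and 76, then 22, 44 and 1, with a log2 fold change of 3.02 ± 0.81 (edgeR adjusted p = 0.0247). None of these rising promoter regions had a peak in a DMSO library, and each had one in all 3 osimertinib DTP libraries.

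Under the same rule, the largest promoter falls were at LINC02246, LINC01605, LINC02346 and LINC01843. The LINC02246 region (chr21:14916106-14916607) had 56, 165 and 116 counts in DMSO, 4, 2 and 11 in osimertinib DTP, then 13, 21 and 1 in the AZD5153 group, a log2 fold change of -4.19 ± 0.81 (edgeR adjusted p = 0.0058). Of the LINC01605 promoter regions, that at chr8:37494009-37494510 had 84, 102 and 64 counts in DMSO, 6, 5 and 8 in osimertinib DTP, then 2, 3 and 2 in the AZD5153 group (-3.54 ± 0.61, edgeR adjusted p = 0.00372). The one at chr8:37493418-37493919 had 78, 103 and 65, then 10, 6 and 4, then 3, 2 and 5 counts (-3.45 ± 0.66, edgeR adjusted p = 0.00565). At these 3 regions every library of the AZD5153 group also lay below every DMSO library.

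At LINC02346 (chr15:25902722-25903223) DMSO had 124, 165 and 166 counts, osimertinib DTP had 19, 8 and 11 and the AZD5153 group had 17, 8 and 7, a log2 fold change of -3.46 ± 0.58 (edgeR adjusted p = 0.00371). LINC01843 (chr5:134506456-134506957) had 106, 160 and 145, then 13, 16 and 4, then 4, 6 and 11 counts, with -3.41 ± 0.71 (edgeR adjusted p = 0.00837). Here too the AZD5153 group was wholly below DMSO. Every DMSO library had a peak at each of these falling regions, and no osimertinib DTP library did.

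The most acetylated LINC promoters were not called in either direction in osimertinib DTP. The highest was that of LINC00963 (chr9:129483054-129483555), with 620, 639 and 517 counts in DMSO, 588, 859 and 529 in osimertinib DTP, then 715, 698 and 835 in the AZD5153 group (log2 fold change in osimertinib DTP 0.39 ± 0.50, edgeR adjusted p = 0.687). LINC02709 followed (chr11:9759049-9759550), with 500, 508 and 361, then 547, 765 and 400, then 643, 674 and 648 counts (0.57 ± 0.50, edgeR adjusted p = 0.529). The DMSO and osimertinib DTP values overlapped in both.

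LINC01465, LINC01730 and LINC01460 were next, with mean levels over the 9 libraries of 65.4, 61.7 and 60.8 CPM and log2 fold changes of 0.09 ± 0.55, 0.12 ± 0.48 and 0.73 ± 0.51, none of them called (edgeR adjusted p = 0.949, 0.916 and 0.404). The highest distal regions were those of LINC00592 (90.1 CPM), LINC01303 (75.3), LINC00963 (64.9), LINC02324 (63.6) and LINC01629 (62.3), and none was called. LINC00592 (chr12:52147601-52148102), 16013 bp from the TSS, had 790, 939 and 893 counts in DMSO, 687, 868 and 800 in osimertinib DTP, then 656, 753 and 685 in the AZD5153 group (0.05 ± 0.46, edgeR adjusted p = 0.968).

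Over all promoter and distal LINC regions, again called and not overlapping, the largest rises started from almost no reads. The region of LINC00840 (chr10:43825269-43825770), in an intron of that gene, had 0 counts in each DMSO library, 50, 53 and 21 in osimertinib DTP, then 49, 22 and 51 in the AZD5153 group. Over the group, 124 counts against a floor of 3 make it at least 45.9-fold higher in osimertinib DTP. The distal region of LINC02303 (chr14:45633985-45634486), 79934 bp from the TSS, had 0, 1 and 0 counts in DMSO, 36, 51 and 88 in osimertinib DTP, then 55, 77 and 24 in the AZD5153 group. With 1 count against 175 the ratio was 194 (95% counting interval 34.4 to 7720). Together with the promoter region above, LINC02303 thus had both a distal and a promoter region that rose.

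LINC01091 (chr4:124018614-124019115, distal intergenic) had 1, 0 and 0 counts in DMSO, 27, 23 and 27 in osimertinib DTP, then 73, 58 and 11 in the AZD5153 group, a ratio of 85.5 (95% counting interval 14.9 to 3421). The remaining large rises were in LINC00662, described below. Counting intervals and floors cover counting error only.

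Under that rule too, the largest falls ended at almost no reads. LINC01152 (chr17:71995741-71996242, distal intergenic) had 61, 104 and 58 counts in DMSO, 1, 0 and 2 in osimertinib DTP, then 3, 4 and 2 in the AZD5153 group, so that DMSO was 66.9 times osimertinib DTP (95% counting interval 22.6 to 327). LINC01591 had 2 distal regions of this kind, the stronger (chr8:135190131-135190632) with 58, 122 and 88, then 1, 1 and 3, then 2, 5 and 1 counts (log2 fold change -5.52 ± 0.77, edgeR adjusted p = 0.00273). At the other (chr8:135189355-135189856) the 139 counts of DMSO stood against 3, a ratio of 41.7 (95% counting interval 13.98 to 204.7).

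The region of LINC02053, 2458 bp from its TSS (chr3:180410049-180410550), had 55, 68 and 50 counts in DMSO, 5, 0 and 0 in osimertinib DTP, then 3, 0 and 3 in the AZD5153 group (-4.92 ± 1.00, edgeR adjusted p = 0.00722). LINC00354 (chr13:111943308-111943809, distal intergenic) had 28, 81 and 93, then 3, 0 and 3, then 0, 4 and 3 counts (-4.92 ± 0.95, edgeR adjusted p = 0.00582). In all of these falls the AZD5153 group also lay below every DMSO library.

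Many LINC genes held several called regions. Of the 746 LINC genes, 332 (44.5%) had at least 1 region called in osimertinib DTP against DMSO, 193 had at least 2 and 43 had at least 5, and 709 of the 848 called regions (83.6%) lay in the 193 genes. For the other annotated genes these shares were 25.5% of genes with a called region and 79.4% of called regions in genes with at least 2, with a median of 2 regions per gene against 3. In 80 of the 193 every called region was higher, in 97 every one was lower, and 16 (8.29%) held both directions. Among the 2002 other annotated genes with at least 2 called regions, 13.2% held both. Regions of 1 gene are neighbours and not independent. By chromosome, the share of LINC regions called ran from 13.2% on X to 46.8% on chromosome 19, where 22 of 47 were called, 21 of them in LINC00662.

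The 10 genes with most called regions held 119 of the 848 regions. Each was called in 1 direction only: LINC00662, LINC02015, LINC02615 and LINC01450 were higher, and LINC00656, LINC02246, LINC02205, LINC01910, LINC02313 and LINC02324 lower. For these, H3K27ac summed over all regions of the gene is given per library.

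**Figure D3:**
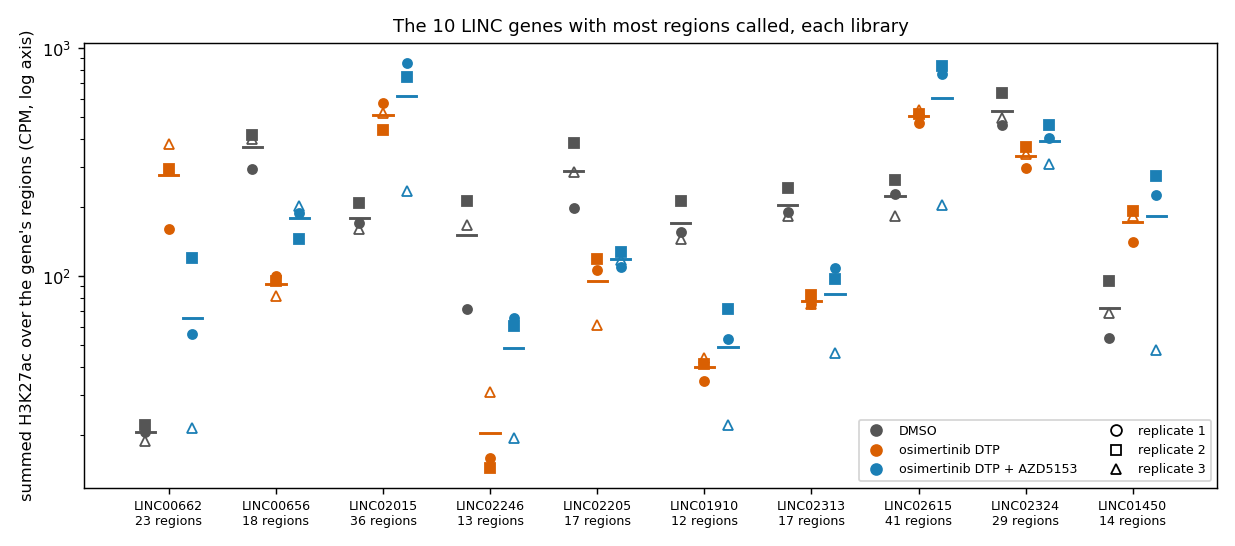
Summed H3K27ac over all regions of each of the 10 LINC genes with most called regions (CPM after TMM scaling, log axis), with 1 symbol per library and a bar at the mean of 3 libraries. All osimertinib DTP libraries lie above DMSO at LINC00662, LINC02015, LINC02615 and LINC01450 and below it at the other 6. This follows in part from the choice of genes by calls in that comparison. Replicate 3 of osimertinib DTP + AZD5153 is often apart from replicates 1 and 2.

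LINC00662 was the locus with most called regions: 21 of its 23 regions were higher in osimertinib DTP, over 95832 bp (chr19:27693252-27789083). The RefSeq gene spans 3448 bp near the right end, and 20 of the 21 regions lie in introns of longer transcripts that the authors' annotation gives to it. The nearest protein-coding gene, UQCRFS1, a subunit of respiratory complex III, lies 1411957 bp away. Its regions summed to 20.8, 22.2 and 18.9 CPM in DMSO, 160.6, 294 and 380 in osimertinib DTP, then 55.9, 120 and 21.7 in the AZD5153 group. All osimertinib DTP libraries were above all others.

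The strongest of the LINC00662 regions (chr19:27763198-27763699, intronic) had 1, 2 and 0 counts in DMSO, 46, 53 and 118 in osimertinib DTP, then 5, 6 and 2 in the AZD5153 group. The ratio of osimertinib DTP to DMSO was 80.3 (95% counting interval 27.1 to 392.6). At the left end (chr19:27693252-27693753) counts were 0, 3 and 4, then 67, 105 and 204, then 6, 22 and 2 (5.82 ± 0.93, edgeR adjusted p = 0.0034). Log2 fold changes of the 21 regions ran from 3.32 to 6.14.

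Neither of the LINC00662 promoter regions within 1 kb was called. The TSS region had a peak in all 3 DMSO libraries, and the other had none there and one in all 3 osimertinib DTP libraries. That at the TSS (chr19:27792862-27793363) had 77, 88 and 71 counts in DMSO, 127, 158 and 173 in osimertinib DTP, then 171, 204 and 40 in the AZD5153 group (1.15 ± 0.55, edgeR adjusted p = 0.198). The one 865 bp away had 55, 39 and 39, then 118, 95 and 220, then 106, 156 and 23 counts, with a log2 fold change of 1.85 (edgeR adjusted p = 0.0531). The input library had a median of 7 counts in the 21 called regions, against 12 over all LINC regions, but it is a pool and gives no value per group.

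**Figure D4:**
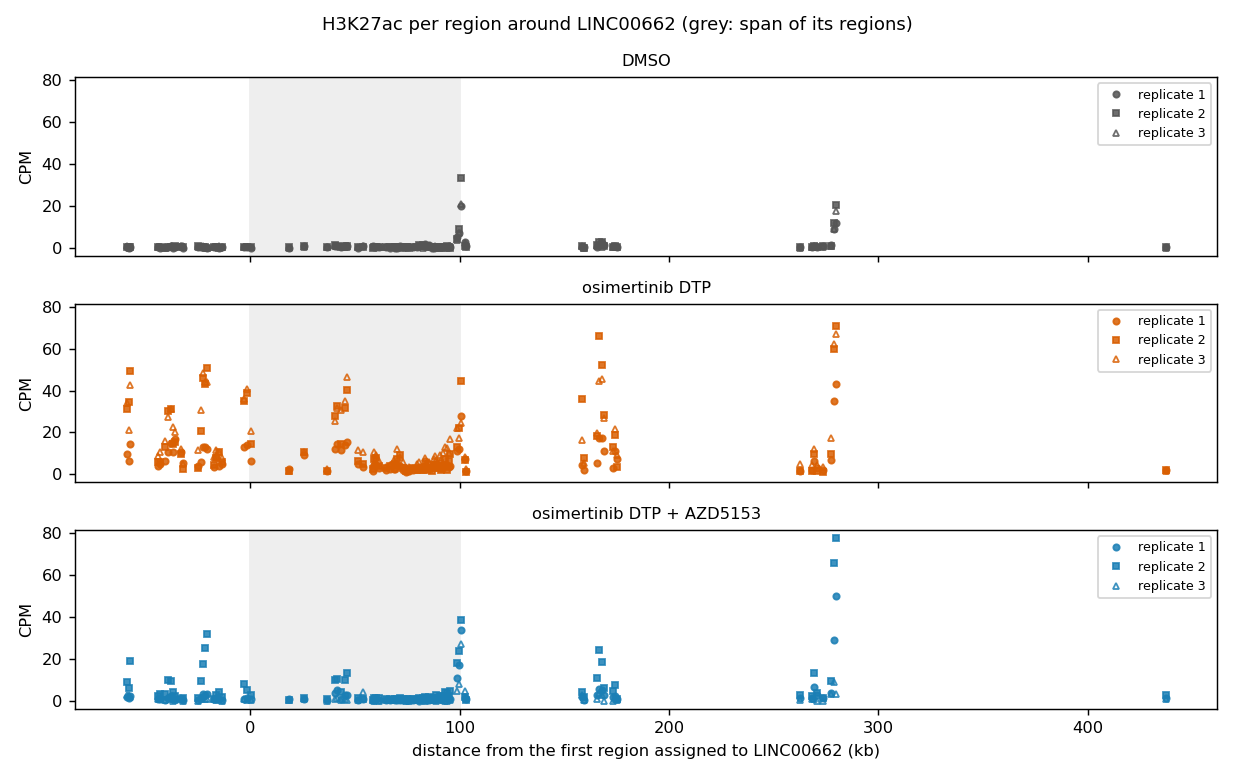
H3K27ac (CPM after TMM scaling) of each tested region within 500 kb of the LINC00662 regions, plotted by distance from the first of them, for each library of DMSO (top), osimertinib DTP (middle) and osimertinib DTP + AZD5153 (bottom). In DMSO the grey span is near 0 except at its right end, the promoter, while in osimertinib DTP many regions across it and to its left are raised. Regions to its right, from 158.4 to 175 kb, are raised there too. Replicate 1 is lowest in the sum over the LINC00662 regions, but replicate 2 is lowest in some single regions.

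Of the other genes with rising regions, LINC02015 had 13 of 36 regions higher, over 136897 bp on chromosome 3 (chr3:177770401-177907297), with TBL1XR1, a subunit of the NCoR and SMRT corepressor complexes, as nearest protein-coding gene. Its regions summed to 171, 208 and 161 CPM in DMSO, 574, 435 and 519 in osimertinib DTP, then 860, 748 and 236 in the AZD5153 group. The strongest (chr3:177904799-177905300) had 30, 7 and 11 counts in DMSO, 268, 273 and 329 in osimertinib DTP, then 434, 410 and 42 in the AZD5153 group (4.39 ± 0.74, edgeR adjusted p = 0.00371). Even the lowest library with drug, replicate 3 of the AZD5153 group, was above DMSO in the sum.

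LINC02615, with 9 of 41 regions higher, lies on chromosome 4 (chr4:128321908-128601465) nearest to PGRMC2, a haem-binding membrane protein. Its regions summed to 228, 264 and 183 CPM in DMSO, 467, 515 and 533 in osimertinib DTP, then 772, 834 and 205 in the AZD5153 group. replicate 3 of the AZD5153 group fell within the DMSO range, and the other 5 libraries with drug were above it. None of its 3 promoter regions within 1 kb was called.

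LINC01450 had 8 of 14 regions higher (chr7:40914646-41029669), within the bounds of SUGCT, a coding gene of glutarate metabolism. Its sums were 53.4, 95.2 and 68.7 CPM in DMSO, 141, 194 and 184 in osimertinib DTP, then 227, 274 and 47.4 in the AZD5153 group. The strongest region (chr7:40918070-40918571) had 6, 0 and 4 counts, then 127, 178 and 180, then 174, 179 and 63 (5.78 ± 0.80, edgeR adjusted p = 0.00273). At that region all 6 libraries with drug were above DMSO.

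Of the falling loci, LINC00656 had the most: 14 of 18 regions were lower, all over 3 kb from the TSS, within 39968 bp on chromosome 20 (chr20:23116985-23156952). The nearest protein-coding genes were CD93, a receptor of endothelial and myeloid cells, and THBD, which encodes thrombomodulin. Its regions summed to 294, 416 and 399 CPM in DMSO, 99.8, 95.3 and 81.9 in osimertinib DTP, then 190, 145 and 203 in the AZD5153 group. The 3 groups did not overlap: DMSO was highest, osimertinib DTP lowest and the AZD5153 group between them. The locus was picked for low osimertinib DTP values, which favours higher values in another group. This order is therefore no test of AZD5153.

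At the strongest LINC00656 region (chr20:23149495-23149996) DMSO had 278, 365 and 400 counts, osimertinib DTP had 39, 21 and 37 and the AZD5153 group had 74, 82 and 75. Its log2 fold change was -3.31 ± 0.56 in osimertinib DTP against DMSO (edgeR adjusted p = 0.00371) and -1.72 in the AZD5153 group against DMSO (edgeR adjusted p = 0.0307). The step between the drug groups was not called.

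LINC02246 had 12 of 13 regions lower, over 42599 bp (chr21:14874699-14917297), both promoter regions among them. The nearest protein-coding gene is NRIP1, a nuclear receptor corepressor, 43938 bp away. Its sums were 71.6, 214 and 168 CPM in DMSO, 15.9, 14.5 and 30.9 in osimertinib DTP, then 65.3, 60.6 and 19.5 in the AZD5153 group. DMSO replicate 1 was the lowest of its group yet above every library with drug. The promoter region at the TSS had 53, 176 and 144 counts, then 10, 6 and 25, then 22, 57 and 1 (-3.09 on the log2 scale, edgeR adjusted p = 0.028).

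LINC02205 (12 of 17 lower, chr15:70474698-70509410, nearest coding gene UACA) summed to 200, 384 and 287 CPM in DMSO, 106, 119 and 61.1 in osimertinib DTP, then 110, 128 and 118 in the AZD5153 group. LINC01910 (11 of 12 lower, chr18:70372468-70424691) lies 42269 bp from SOCS6, a suppressor of cytokine signalling, and summed to 155, 212 and 145 CPM in DMSO, 34.6, 41.3 and 43.9 in osimertinib DTP, then 53.0, 71.4 and 22.2 in the AZD5153 group. At both loci all libraries with drug were below all DMSO libraries. Of the promoter regions within 1 kb, 1 of 2 was called lower in LINC02205 and 2 of 3 in LINC01910.

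LINC02313 had 10 of 17 regions lower, all distal (chr14:31894634-32009125), near NUBPL, which serves the assembly of respiratory complex I. It summed to 191, 243 and 183 CPM in DMSO, 75.2, 82.5 and 75.0 in osimertinib DTP, then 108, 97.3 and 46.0 in the AZD5153 group. LINC02324 (9 of 29 lower, chr14:65180094-65277978) lies between FUT8, which adds core fucose to glycoproteins, and MAX, the partner of MYC. Its sums were 460.5, 637 and 494 CPM in DMSO, 297, 366 and 344 in osimertinib DTP, then 403, 458 and 311 in the AZD5153 group. This locus held both kinds of region: its strongest (chr14:65261113-65261614) fell from 119, 155 and 123 counts to 17, 8 and 16 (-3.15 ± 0.58, edgeR adjusted p = 0.00485), whereas the region with the most reads, named above among the highest distal ones, had a log2 fold change of -0.08 ± 0.45 (edgeR adjusted p = 0.944).

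A list of 15 LINC genes known from work on lung cancer was also examined, chosen with earlier results of these data known. Of these, 11 had a region, 118 regions in all. In osimertinib DTP against DMSO 22 were higher and 10 lower, and 21 of the 22 belonged to LINC00662, so that 1 of the other 95 was higher, where the background over all tested regions was 5.58% higher and 5.13% lower. The median log2 fold change of the list was 0.12, against 0.15 over all tested regions.

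LINC00673, an RNA described as raised in several carcinomas, had 6 of its 36 regions lower, all in introns of the gene between 7275 and 16570 bp from a TSS. The strongest (chr17:72397450-72397951) had 88, 181 and 113 counts in DMSO, 11, 9 and 5 in osimertinib DTP, then 14, 6 and 2 in the AZD5153 group (-3.76 ± 0.66, edgeR adjusted p = 0.00411). Its highest promoter region (chr17:72592195-72592696) had 284, 324 and 258, then 309, 551 and 346, then 284, 298 and 462 counts, and was not called (0.73 ± 0.55, edgeR adjusted p = 0.455). The promoter region at the TSS nearest to those introns (chr17:72407175-72407676) had 71, 88 and 66 counts in DMSO, 45, 28 and 58 in osimertinib DTP, then 48, 41 and 11 in the AZD5153 group, and was not called either (-0.65 ± 0.53, edgeR adjusted p = 0.49). Its DMSO and osimertinib DTP libraries did not overlap in CPM. The difference between promoter and intron regions was not tested.

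LINC00460 had 2 of 7 regions lower, neither of them a promoter region within 1 kb. Its promoter region with the most reads (chr13:106376596-106377097) had 259, 400 and 252 counts in DMSO, 126, 91 and 74 in osimertinib DTP, then 139, 140 and 13 in the AZD5153 group. The DMSO and osimertinib DTP libraries did not overlap, but the change did not pass the test (-1.49 ± 0.62, edgeR adjusted p = 0.136). The single region of LINC01234 (chr12:113727909-113728410, intronic) fell from 33, 50 and 46 counts to 9, 3 and 2 (-3.06 ± 0.78, edgeR adjusted p = 0.0208) and had 1, 1 and 4 in the AZD5153 group.

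LINC00963 had 1 of 31 regions lower and LINC00858 had 1 of 2 higher, though the LINC00858 region with the most reads had 0.92 ± 0.56 (edgeR adjusted p = 0.327). No region of LINC00511 (12), LINC00472 (2), LINC00857 (1), LINC00665 (1) or LINC00336 (2) was called. LINC00472 showed the widest spread: its promoter region (chr6:71420158-71420659) had 89, 52 and 40 counts in DMSO, 89, 235 and 41 in osimertinib DTP, then 104, 76 and 296 in the AZD5153 group (1.37 ± 0.79, edgeR adjusted p = 0.299). For the highest regions of LINC00511, LINC00857, LINC00665 and LINC00336 the log2 fold changes were -0.03 ± 0.63, 0.62 ± 0.55, -0.08 ± 0.52 and -0.45 ± 0.55 (edgeR adjusted p = 0.987, 0.53, 0.951 and 0.682).

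**Figure D5:**
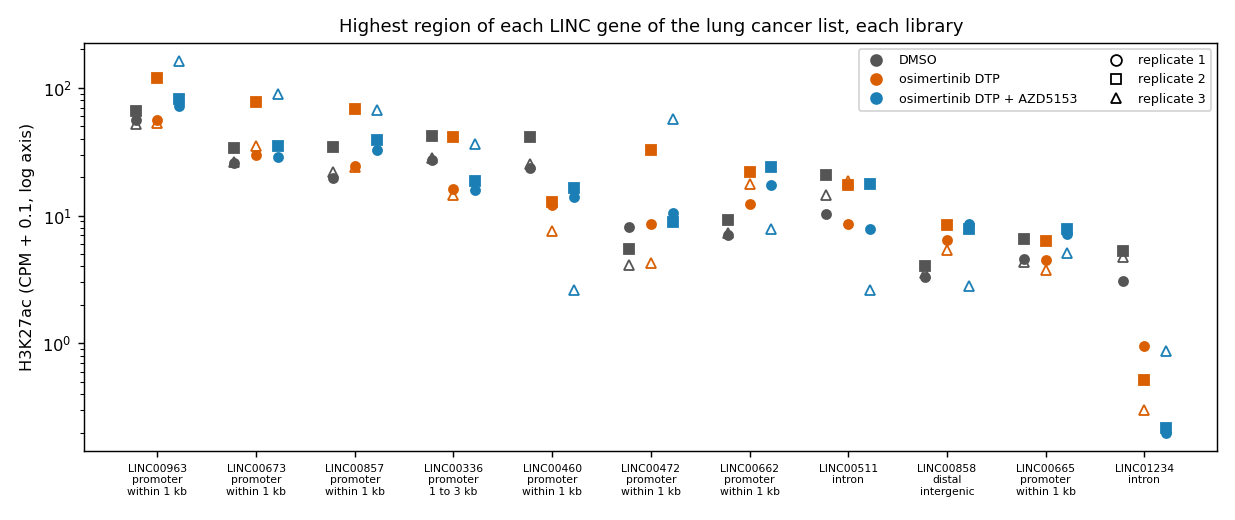
H3K27ac of the region with the highest mean of each of the 11 LINC genes of the lung cancer list (CPM + 0.1, log axis), with 1 symbol per library. LINC01234 is the 1 gene of the 11 whose highest region was called, with all libraries with drug below DMSO, and the osimertinib DTP and DMSO libraries do not overlap in 4 of the 11. The share without overlap was not counted over all regions, so the 4 of 11 is no result about these genes.

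AZD5153 after osimertinib gave no called LINC region against osimertinib DTP. The counts were 0 higher and 0 lower (edgeR), the same as the background over all tested regions, 0.0% higher and 0.0% lower. At an unadjusted p under 0.05 there were 91 higher and 140 lower LINC regions, 6.3% of them against 4.44% of all tested regions. Of the 140 lower regions, 21 were neighbours in the single locus LINC00662, and they are not independent. Without replicate 3 of the AZD5153 group there was 1 higher, in LINC00396, and 3 lower, all in LINC00662, and DESeq2 called 2 higher, in LINC00656 and LINC00494, and 6 lower, again all in LINC00662.

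The 5 LINC regions with the lowest p in that comparison all belonged to LINC00662. In 20 of its 21 regions called in osimertinib DTP, every library of the AZD5153 group had a lower CPM than every osimertinib DTP library. These 21 are neighbours picked for high osimertinib DTP values, which favours lower values in another group. The count is therefore no test of AZD5153. The first of the 5 (chr19:27718543-27719044) had 95, 78 and 107 counts in osimertinib DTP, then 7, 12 and 3 in the AZD5153 group, close to the 7, 8 and 3 of DMSO. The log2 fold change was -3.47 (edgeR adjusted p = 0.313). The next (chr19:27763198-27763699) had -3.84, and those starting at 27752236, 27744255 and 27761399 had -3.89, -3.58 and -3.29, with edgeR adjusted p of 0.349 for the second and 0.506, 0.675 and 0.682 for the others.

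Against DMSO, the AZD5153 group had 509 LINC regions higher (13.9%) and 599 lower (16.3%, edgeR adjusted p under 0.05). The background was 9.05% and 9.01% of all tested regions and 10.7% and 11.1% of the annotated ones. This comparison shares its DMSO libraries with the first. The promoter class within 1 kb had 7.48% higher and 7.12% lower LINC regions, and distal intergenic sequence 15.9% and 19.4%. The higher count was 302 without DMSO replicate 1, 170 without DMSO replicate 2, 180 without DMSO replicate 3, 329 without replicate 1 of the AZD5153 group and 971 without its replicate 3. The lower count was 251 without DMSO replicate 2 and 339 without DMSO replicate 3.

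For some of the 10 loci, calls of the AZD5153 group against DMSO are given here. LINC02015 had 20 regions higher than DMSO and LINC02615 had 18, LINC02205 had 11 lower and LINC02313 had 13 lower. LINC00662 had 6 higher and LINC00656 had 3 lower, where osimertinib DTP alone had 21 and 14. Both loci were chosen for their many calls in osimertinib DTP, which favours fewer calls in another comparison. These numbers are therefore no test of AZD5153. LINC02324 held both directions. Its region at chr14:65229522-65230023 was higher (log2 fold change 1.86, edgeR adjusted p = 0.0347), with 141, 71 and 70 counts in DMSO and 291, 175 and 257 in the AZD5153 group. Its strongest falling region, given above, was lower (-3.45, edgeR adjusted p = 0.00193). By edgeR with all libraries, no region of these loci was called between the drug groups, and the LINC00662 and LINC00656 regions called by DESeq2 or without replicate 3 of the AZD5153 group are those given above.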

How the data were processed

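Read counts per region, with no normalization, were deposited by the authors for 169637 regions of 502 bp in 9 H3K27ac libraries and 1 pooled input, and the annotated table repeats the counts for 67387 of them with a gene and a distance to the TSS. The authors also deposited a peak list per library, with a score, a fold enrichment (a ratio over background) and p and q as −log10 values. The submitters' processing notes name BWA 0.7.17, MACS2 2.2.6, featureCounts 2.0.0, ChIPseeker 1.29.1 and hg38. Whether duplicate reads were removed is not given in the sources used here, and the rule that selected the annotated regions is not stated. The available paper does not describe this ChIP-seq experiment, and no column of samples was left unused (0).

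Counts of all 9 libraries entered 1 fit (edgeR 4.0.16, limma 3.58.1, R 4.3.3): filterByExpr at its defaults (minimum count 10), TMM, glmQLFit with robust estimation and glmQLFTest, with Benjamini-Hochberg adjustment over all 157919 tested regions at 0.05. Groups and replicate numbers came from the sample titles. CPM values are after TMM scaling. The fits were tested on simulated data. Peak overlaps (at least 1 bp) used bedtools 2.31.1. Shares of counts were compared with two-sided exact permutation tests over 3 pairs of groups. Same-numbered libraries of osimertinib DTP and DMSO deviated together from their group means (Pearson r = 0.334, 0.355 and 0.324 across regions), each over the limit of 0.1 set for a pairing. The reported fits and permutation tests were unpaired, and a fit with the replicate number as a block was an alternative.

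The members and lists were chosen with earlier results of these data known. Named in the text are the 10 LINC genes with most regions called in osimertinib DTP against DMSO (with their nearest coding gene and strongest region), the 5 largest rises and 5 largest falls among all LINC regions and among promoter regions within 1 kb whose libraries did not overlap, the 5 promoter and 5 distal regions with the highest mean CPM, the highest region of each gene of the lung cancer list, and the 5 LINC regions with the lowest p for AZD5153. Names outside this rule (LINC00396 and LINC00494, the second LINC00662 and LINC02246 promoter regions and the LINC00673 intron region and second promoter region) were chosen after their values were seen. So was the LINC02324 region called higher in the AZD5153 group. Alternatives were DESeq2 1.42.0, no TMM, a loess offset (span 0.3), no filter, the annotated regions alone, a fit to just the libraries of both groups, a replicate block, an adjusted p under 0.01 and each library left out. Promoter sequences and gene bounds are from RefSeq (GRCh38.p14).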

Additional observations from a re-analysis of the deposited data

Results flagged for a closer look

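Beyond the annotated regions described above, the whole count table holds unannotated regions around LINC00662 on chromosome 19, which entered none of the comparisons of LINC regions. Within 500 kb of the LINC00662 regions, 43 regions outside the annotated table were called higher in osimertinib DTP than in DMSO (edgeR adjusted p under 0.05), and 0 were called lower. They were 23 of the 23 tested to the left of the LINC00662 regions, 16 of the 22 tested among them and 4 of the 6 tested to their right. The 28 regions to the left (chr19:27634104-27691820) summed to 94, 90 and 105 counts in DMSO, 2249, 3688 and 5562 in osimertinib DTP, then 312, 1544 and 102 in osimertinib DTP + AZD5153, with 213 counts in the input. The median log2 fold change of the 23 tested was 5.69. The rest of the annotated regions in the same window, all 15 of them assigned to LOC101927151, were higher in 12 cases and lower in 0.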

How the results depend on the processing

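The number of called LINC regions depended on the libraries and on the fit, and the cause was not tested. In osimertinib DTP against DMSO, with 360 higher and 488 lower, the lower count was 746 with DESeq2, both were larger with only the libraries of both groups (710 and 855), and 128 and 132 had an adjusted p under 0.01. Leaving out 1 library gave 48 to 700 higher and 41 to 915 lower. For osimertinib DTP + AZD5153 against osimertinib DTP, DESeq2 gave 2 higher and 6 lower, and leaving out 1 library gave 0 to 1 and 0 to 3. Against DMSO the higher count was 326 with only the libraries of both groups, 219 higher and 289 lower had an adjusted p under 0.01, and leaving out 1 library gave 170 to 971 higher and 251 to 791 lower. The replicate block gave 368 higher and 482 lower in osimertinib DTP against DMSO, and changed the call of none of the 33 called regions named in the text. In the comparisons with AZD5153 the numbers did not pair the libraries (Pearson r of -0.24 to 0.243 with osimertinib DTP and -0.018 to 0.553 with DMSO), and the block gave 0 and 0 and 448 and 635. Of the 33, 17 were no longer called without DMSO replicate 2, 8 without DMSO replicate 3, 6 without osimertinib DTP replicate 3 and 7 at an adjusted p under 0.01. With only the libraries of both groups, 3 named regions gained a call, LINC00460 (adjusted p = 0.0196), LINC00472 (0.0498) and the LINC00662 promoter (0.0451), by edgeR. Of the 6 share differences 3 changed sign when 1 library was left out, giving -0.0441 to 0.00792 points for promoters in osimertinib DTP against DMSO, -0.356 to 0.768 for distal regions in the AZD5153 group against osimertinib DTP and -0.862 to 0.262 against DMSO. The other 3 kept their sign (-0.785 to -0.158 for distal regions in osimertinib DTP against DMSO, 0.0371 to 0.0846 and 0.0265 to 0.0616 for promoters in the AZD5153 group against osimertinib DTP and DMSO), and the wider promoter class gave -0.00696 for osimertinib DTP + AZD5153 against DMSO. Log2 fold changes of uncalled regions near 0 also changed sign in osimertinib DTP against DMSO. LINC01465 gave -0.0276 with DESeq2, -0.0422 with annotated regions alone, -0.105 without TMM, -0.352 with loess and -0.00375 with the block. LINC01730 gave -0.0131 without TMM and -0.194 with loess, and LINC00592 gave -0.0753 with DESeq2, -0.0733 without TMM and -0.225 with loess. LINC00511 gave 0.0431 without the filter, 0.0219 with only the libraries of both groups and 0.0143 with the block. Leaving out 1 library gave -0.0285 to 0.684 for LINC00963, -0.593 to 0.484 for LINC01465, -0.205 to 0.483 for LINC01730, -0.18 to 0.31 for LINC00592, -0.177 to 0.151 for LINC02324, -0.252 to 0.335 for LINC00511 and -0.265 to 0.187 for LINC00665.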
